A study of Homo sapiens and Mus musculus with 213 samples.

Results

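The collapsin response mediator proteins (CRMPs) are a family of 5 cytosolic phosphoproteins, encoded by CRMP1, DPYSL2 (CRMP2), DPYSL3 (CRMP4), DPYSL4 (CRMP3) and DPYSL5 (CRMP5). The rows of the RNA-seq tables whose Ensembl identifier carries one of these symbols in GENCODE were taken, which gave 5 of 58336 listed genes, and all 5 were among the 20884 genes with a mean of at least 10 normalized counts that entered the tests. The family was selected on differences between MUT and WT that were already known, so the values of MUT against WT, and of MUT against SWP, are given as a description without a test. SWP against WT was tested, although it shares the WT libraries with the known comparison.

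CRMPs relay semaphorin 3A, a repulsive guidance cue, from neuropilin and plexin receptors to the cytoskeleton of the growth cone. They bind tubulin dimers and promote microtubule assembly, and phosphorylation by kinases such as CDK5 and GSK3B releases them from tubulin. Their sequences are related to dihydropyrimidinase, an enzyme of pyrimidine breakdown, but the CRMPs lack that catalytic activity. They are most abundant in the developing nervous system and are also found in other tissues and cell lines.

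All libraries came from HEK293T, an immortalized human embryonic kidney cell line that carries the SV40 large T antigen. The WT line holds the natural G-quadruplex (G4) motif at the MYC promoter, a guanine-rich stretch that folds into a 4-stranded structure. In the MUT line, CRISPR editing placed mutations in the guanine runs of that motif so that it no longer folds, and in the SWP line the motif was exchanged for a G4-forming motif of a different gene. Each edited line was grown from a sorted single clone, and the sources used here do not state how many clones the libraries of a line came from, so the edit and differences between clones cannot be told apart. Each line had 3 poly(A)-selected libraries labelled as biological replicates, with 65024354 to 98497026 reads on genes per library.

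MYC, the targeted gene, had 20020.3 to 28396 normalized counts in WT, 10693 to 12400 in MUT, all below WT, and 14480.1 to 25245 in SWP, overlapping WT. The column headers of the WT tables name a sequencing pool that the headers of MUT and SWP do not, so this pool and the difference of both edited lines from WT cannot be told apart. Of 9 kidney markers, PAX2, LHX1 and AQP1 were the 3 with a mean of at least 10 counts, while UMOD, the uromodulin gene of the kidney tubule, was at 0 in every library. The summed level of the kidney list was 393 to 542 in WT, 662 to 845 in MUT and 276 to 471 in SWP. Of 8 neuronal markers 6 passed that minimum in these kidney-derived cells, among them NEFL and NEFM, the light and medium neurofilament chains. The summed level of the neuronal list was 20371 to 22361 in WT, 24525 to 25725 in MUT and 15123 to 20002 in SWP. In MUT 5 of its 6 tested genes had a log2 fold change above 0, with a median of 0.71, beside 0.00 over all genes tested. NEFL rose there and NEFM fell (log2 fold changes 1.07 and -0.58, limma adjusted p = 5.75e-06 and 0.0127). In SWP 3 of the 6 were above 0, with a median of -0.19, beside -0.06 over all genes tested. NEFL fell in SWP by 0.54 while INA, another neurofilament protein, rose by 1.44 (limma adjusted p = 0.00219 and 0.000127). The summed level of the glial list was 999 to 1303 in WT, 994 to 1070.3 in MUT and 787 to 943 in SWP, and OLIG2, an oligodendrocyte transcription factor, made up most of it. GFAP, the astrocyte filament protein, fell in MUT from a mean of 40.5 to 11.3 (limma adjusted p = 0.00497). MBP, a myelin protein, fell from 102.2 in WT to 44.5 in MUT and 0.880 in SWP (limma adjusted p = 0.0187 and 1.70e-06), and S100B was at 0 in all SWP libraries. The summed level of the epithelial list was 3762 to 3880.3 in WT, 5098 to 5534 in MUT and 2655 to 3159 in SWP. The list for blood, endothelium and fibroblasts came almost wholly from COL1A1, a collagen chain, and summed to 1041 to 1214 in WT, 1849 to 1958 in MUT and 726 to 1127 in SWP. Each of these sums was carried by a few abundant genes. In MUT all but the glial sum lay above WT, as did the members described below, and the glial sum overlapped WT. In SWP the neuronal, glial and epithelial sums lay below WT and the others overlapped it, while the members went in both directions. The part of these markers in the results was not tested.

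Upstream sequence was taken from RefSeq (GRCh38.p14) for the members with an entry, since the edited element is itself a promoter motif. The entries covered 4 of 5 members with 9 transcript starts, and DPYSL2 had none. The 250 bases before a start are shown for the outermost start of CRMP1 (chr4:5893087-5893336, minus strand), an inner start of CRMP1 (chr4:5888500-5888749, minus strand), the outermost start of DPYSL3 (chr5:147510069-147510318, minus strand) and the start of DPYSL4 (chr10:132186698-132186947, plus strand). These are the members with an entry that differed most between MUT and WT, and their other starts are not shown. Capitals mark stretches that match a G4-like pattern, at least 4 runs of 3 or more G with 1 to 7 bases between runs, searched on both strands, so that runs of C mark the opposite strand.
CRMP1, outermost start: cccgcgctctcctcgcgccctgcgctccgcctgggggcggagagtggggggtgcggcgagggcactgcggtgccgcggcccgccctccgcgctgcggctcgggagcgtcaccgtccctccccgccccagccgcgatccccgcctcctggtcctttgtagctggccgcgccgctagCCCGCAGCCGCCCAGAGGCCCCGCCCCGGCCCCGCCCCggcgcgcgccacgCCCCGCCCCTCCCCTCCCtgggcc
CRMP1, inner start: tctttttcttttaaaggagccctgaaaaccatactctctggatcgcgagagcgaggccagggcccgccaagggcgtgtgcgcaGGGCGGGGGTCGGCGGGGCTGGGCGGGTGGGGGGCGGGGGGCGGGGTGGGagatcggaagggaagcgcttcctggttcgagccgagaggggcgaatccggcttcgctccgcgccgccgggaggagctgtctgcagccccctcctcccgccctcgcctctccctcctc
DPYSL3, outermost start: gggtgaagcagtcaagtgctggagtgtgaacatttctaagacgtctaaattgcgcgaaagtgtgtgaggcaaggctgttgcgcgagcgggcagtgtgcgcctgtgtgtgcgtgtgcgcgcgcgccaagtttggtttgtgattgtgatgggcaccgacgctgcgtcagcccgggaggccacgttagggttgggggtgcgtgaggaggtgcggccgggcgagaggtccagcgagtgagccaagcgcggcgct
DPYSL4: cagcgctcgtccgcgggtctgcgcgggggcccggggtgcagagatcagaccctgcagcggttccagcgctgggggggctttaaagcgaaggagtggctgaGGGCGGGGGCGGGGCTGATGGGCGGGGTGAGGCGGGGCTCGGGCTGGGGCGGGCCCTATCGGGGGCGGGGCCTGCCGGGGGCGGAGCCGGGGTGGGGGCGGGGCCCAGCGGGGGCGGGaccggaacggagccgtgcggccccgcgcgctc

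The G4-like pattern occurred in 6 of the 9 member stretches and in 23.5% of 35116 stretches of the same length in the RefSeq table. The 9 stretches came from only 4 members, and those of DPYSL5 overlap each other, so they are not independent. The GC box GGGCGG, read on both strands and overlapping the guanine runs of the pattern, occurred in 7 of 9 member stretches and in 42.6% of all stretches. DPYSL4 held 8 GC boxes, and the outermost stretch of CRMP1 held 7, while 4.15% of all stretches held 5 or more. The outermost stretch of DPYSL3 held neither motif, whereas its inner start had 2 G4-like stretches and 3 GC boxes. The E-box CACGTG, the core motif of the MYC and MAX dimer, occurred in 1 of 9 member stretches, at another CRMP1 start (chr4:5890222-5890471), and in 6.34% of all stretches. The member stretches were 62.8 to 82.8% G and C, against a median of 58% in the table. These matches are descriptions of letters, and gene-level counts do not show which start was used.

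In MUT 4 members were well above WT and the fifth was slightly above it. CRMP1 and DPYSL3, both low in WT, stood 22.0 and 24.0 times higher by the ratio of means, DPYSL4 2.67 times and DPYSL2 2.09 times, whereas DPYSL5, the most abundant member in WT, was 1.22 times higher. In SWP CRMP1 fell to 40.7% of its WT mean, DPYSL2 and DPYSL3 stood at 92.7% and 88.1%, and DPYSL4 and DPYSL5 were each 1.27 times higher. These are bulk libraries, in which fewer cells that express a gene and less RNA per cell cannot be told apart.

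**Figure D1:**
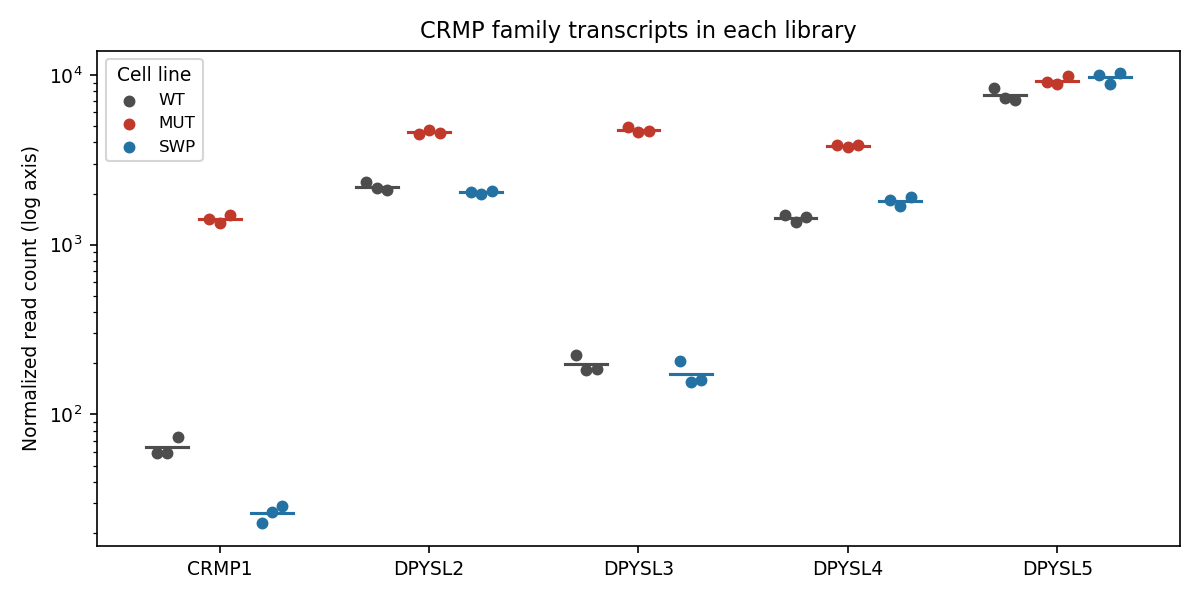
Normalized read counts (log axis) of the 5 CRMP genes in WT, MUT and SWP, with 1 point per library and a line at the mean of 3. CRMP1 and DPYSL3 in MUT sit at 1347 to 1493 and 4606 to 4900.2, far above WT, while in SWP CRMP1 lies at 22.9 to 28.8, below all WT points.

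CRMP1 (ENSG00000072832, chr4:5748084-5893086, minus strand, hg38) encodes a member that takes part in semaphorin 3A signalling and has also been studied as a suppressor of tumour cell invasion. Its normalized counts were 59.5, 59.5 and 74.1 in WT, 1407, 1347 and 1493 in MUT, and 22.9, 26.7 and 28.8 in SWP. The 3 lines did not overlap at any point, with SWP lowest and MUT highest. The WT and SWP values rest on 53 to 77 and 20 to 36 reads per library, against 1386 to 1533 in MUT. On the log2(normalized count + 1) scale, the difference of MUT from WT was 4.44 ± 0.14 (SE, n = 3 against 3).

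DPYSL3 (ENSG00000113657, chr5:147390808-147510068, minus strand) encodes CRMP4, a member that binds actin filaments and bundles them. Its normalized counts were 223, 183 and 185 in WT, 4900.2, 4606 and 4668 in MUT, and 206, 155 and 160.3 in SWP. MUT stood apart from both other lines, and SWP overlapped WT. The log2 difference of MUT from WT was 4.58 ± 0.13 (SE, n = 3 against 3), which is the 25th highest of 20884 genes tested, with CRMP1 the 28th.

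DPYSL4 (ENSG00000151640, chr10:132186948-132205759, plus strand) encodes CRMP3, which has also been described as a target of p53 in energy metabolism. Its normalized counts were 1488, 1356 and 1459 in WT, 3860.3, 3738 and 3882 in MUT, and 1842, 1698 and 1914 in SWP. The 3 lines were again fully separated, here with WT lowest and SWP between WT and MUT. The log2 difference of MUT from WT was 1.42 ± 0.07 (SE, n = 3 against 3).

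DPYSL2 (ENSG00000092964, chr8:26514031-26658178, plus strand) encodes CRMP2, the best studied member, which carries tubulin dimers to growing axons. Its normalized counts were 2322, 2166 and 2089.9 in WT, 4479.6, 4718 and 4566 in MUT, and 2031, 1981 and 2083 in SWP. MUT was above WT, and every SWP library was below every WT library, although the highest SWP and the lowest WT value differed by little. The log2 difference of MUT from WT was 1.07 ± 0.07 (SE, n = 3 against 3).

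DPYSL5 (ENSG00000157851, chr2:26847747-26950351, plus strand) encodes CRMP5, the most distant relative within the family, which antagonizes CRMP2 on neurite outgrowth. Its normalized counts were 8411, 7263 and 7081 in WT, 9008, 8863 and 9820.3 in MUT, and 9988, 8773 and 10210.5 in SWP. Both edited lines were above WT without overlap, and they overlapped each other. The log2 difference of MUT from WT was 0.29 ± 0.09 (SE, n = 3 against 3), under the threshold of 0.5 used for calls.

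A gene was called where limma gave a Benjamini-Hochberg adjusted p under 0.05 over all genes tested and a log2 fold change beyond 0.5. Of all genes tested 21.4% were called in MUT against WT, 11.3% higher and 10.1% lower. The rule was not applied to the members in this comparison, on which the family was selected. The gene lists were also chosen with earlier results of these data known, and genes of the pathway lists were named for their large changes. Their p-values and counts of calls in MUT against WT are therefore descriptions. Higher genes made up 52.8% of these calls, and 64.2% after the values were rescaled to equal totals. As a description, every MUT library was above every WT library in all 5 members, and in 25.9% of all genes tested. In 4 of 5 members every MUT library was above every SWP library, against 29.2% of all genes, and DPYSL5 overlapped.

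Against SWP, CRMP1 in MUT was higher by 5.71 ± 0.14 on the log2 scale (SE, n = 3 against 3), the widest difference of the family. The same difference was 4.77 ± 0.13 for DPYSL3, 1.17 ± 0.07 for DPYSL2, 1.07 ± 0.07 for DPYSL4 and -0.06 ± 0.09 for DPYSL5. Thus 4 members separated MUT from both WT and SWP, and the fifth did not separate the edited lines.

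In SWP against WT, CRMP1 was the only member of the 5 that passed the test, and it fell. Its log2 fold change was -1.26 ± 0.14 (SE, 95% interval -1.58 to -0.95, n = 3 against 3, adjusted p = 0.000264 by limma), which places it 305th from the lowest of 20884 genes. Of all genes tested 5.13% were called in this comparison, 2.15% higher and 2.98% lower. The call held in all 20 other settings and fits tried, with log2 fold changes of -1.34 to -1.04 and adjusted p-values of 3.87e-07 to 0.0108.

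DPYSL4 and DPYSL5 were above WT in SWP by amounts under the fold threshold and were not called. The log2 fold change was 0.34 for DPYSL4 (95% interval 0.18 to 0.50, limma adjusted p = 0.0120) and 0.35 for DPYSL5 (95% interval 0.16 to 0.54, limma adjusted p = 0.0253). The adjusted p exceeded 0.05 for DPYSL4 without SWP replicate 3 (limma, 0.0517) and with only the WT and SWP libraries fitted (limma, 0.0688). For DPYSL5 it exceeded 0.05 in 4 of 9 fits that left out a library, WT replicates 2 and 3 and SWP replicates 1 and 3, at up to 0.0970 by limma. It also did so without the trend (limma, 0.0681) and with only the WT and SWP libraries fitted (limma, 0.0761).

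DPYSL2 and DPYSL3 in SWP did not pass the test. The log2 fold change was -0.11 for DPYSL2 (95% interval -0.25 to 0.04, limma adjusted p = 0.359) and -0.19 for DPYSL3 (95% interval -0.46 to 0.09, limma adjusted p = 0.413). For DPYSL3 the interval corresponds to 0.726 to 1.06 times WT, so equality with WT is not shown. Every SWP library was above every WT library for DPYSL4 and DPYSL5, as for 9.1% of all genes tested, and below for CRMP1 and DPYSL2, as for 15.5%. With 3 libraries against 3, an exact permutation test cannot go below p = 0.1, or below p = 0.25 over 3 pairs (two-sided).

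**Figure D2:**
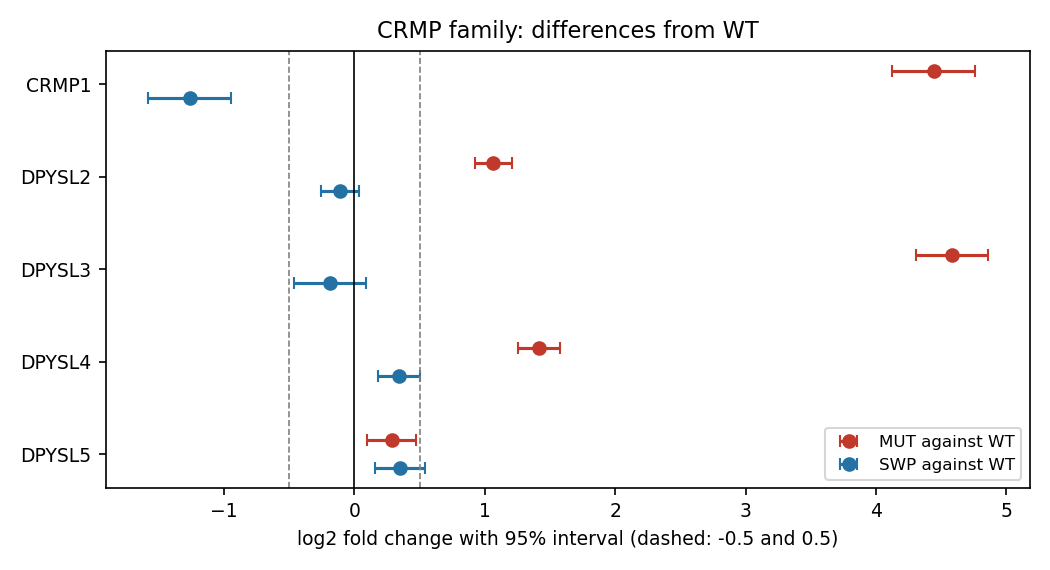
Log2 fold changes of the 5 CRMP genes against WT, with 95% intervals from limma, for MUT (red) and SWP (blue). MUT differences run from 0.29 (DPYSL5) to 4.58 (DPYSL3), and CRMP1 in SWP, at -1.26, is the only SWP interval wholly beyond the dashed threshold of 0.5 in either direction.

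To compare levels between members, normalized counts were divided by the length of the union of exons of each gene. Per kilobase, WT held 1076 ± 102 for DPYSL5, 461 ± 22.4 for DPYSL4, 301 ± 16.2 for DPYSL2, 27.5 ± 3.18 for DPYSL3 and 10.97 ± 1.44 for CRMP1 (SD, n = 3). SWP had the same order, and in WT and SWP no neighbours in the order overlapped. In MUT the order was DPYSL5 at 1309.7 ± 73.2, DPYSL4 at 1230.1 ± 25.0, DPYSL3 at 658 ± 21.6, DPYSL2 at 629 ± 16.5 and CRMP1 at 241 ± 12.5 (SD, n = 3). DPYSL5 and DPYSL4 lay close together there without overlap, while DPYSL3 and DPYSL2 overlapped and changed places when the length of the canonical transcript was used instead.

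The makeup of the family therefore differed by line. DPYSL5 gave 57.4% of the summed per-kilobase level in WT, 60.6% in SWP and 32.2% in MUT. DPYSL3 gave 1.46% in WT, 1.07% in SWP and 16.2% in MUT, and CRMP1 0.584%, 0.197% and 5.93%. The sum over the family was 1876 ± 134 in WT, 4068 ± 98.0 in MUT and 2262 ± 153 in SWP (SD, n = 3), 2.17 times WT in MUT and 1.21 times in SWP. Of the excess in MUT, DPYSL4 supplied 35.1%, DPYSL3 28.8%, DPYSL2 15.0%, DPYSL5 10.7% and CRMP1 10.5%. DPYSL3 thus had both the widest fold difference and the second largest share, whereas CRMP1, with a similar fold, supplied a smaller share.

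**Figure D3:**
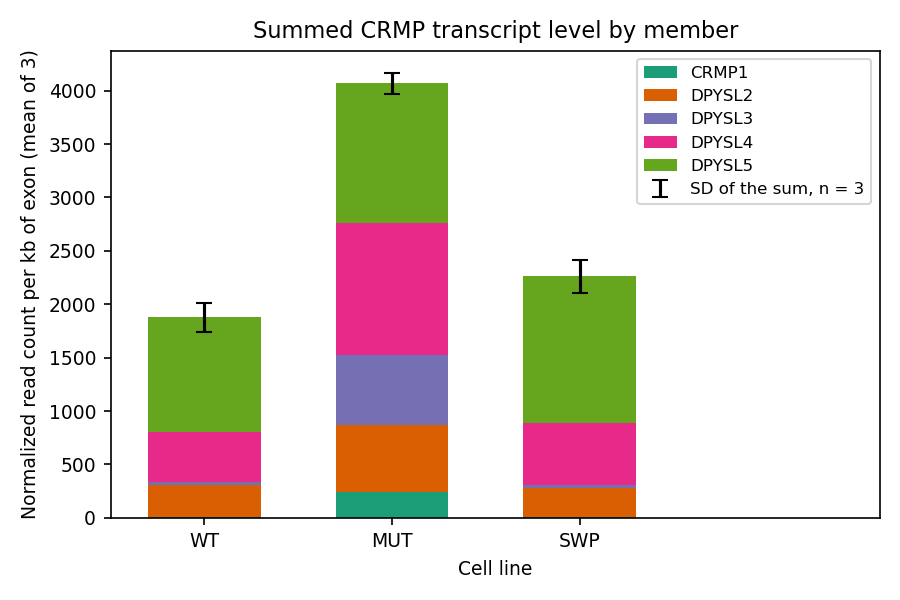
Summed CRMP transcript level in normalized read counts per kb of exon, stacked by member, as means of 3 libraries per line with the SD of the sum. The MUT bar reaches 4068 with visible CRMP1 and DPYSL3 segments, against 1876 in WT and 2262 in SWP, where DPYSL5 alone makes up 57.4% and 60.6% of the bar.

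Some reads could be shared with overlapping genes, since whether strand was used in counting is not given in the sources used here. PNMA2, a paraneoplastic antigen gene on the opposite strand, overlaps the start of DPYSL2 by 62 bases, and it had 2050.5 ± 224 normalized counts in WT, 5279 ± 220 in MUT and 1772 ± 206 in SWP (SD, n = 3). It was thus higher in MUT by 2.57 times, beside 2.09 times for DPYSL2. EVC, a ciliary gene on the opposite strand, overlaps the span of CRMP1, introns included, over 66222 bases. It had 1699 ± 127 in WT, 2167 ± 21.4 in MUT and 1633 ± 68.0 in SWP (SD, n = 3). The union of exons of CRMP1 is 5869 bases, and the exon bases shared with overlapping genes were not computed. The other overlapping genes with a listed row, a pseudogene in DPYSL2 and a non-coding RNA each at DPYSL3 and DPYSL5, had line means of at most 2.07. DPYSL4 overlapped no annotated gene.

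The members lie on 5 chromosomes, and tested genes within 5 Mb of each were compared with it. In MUT against WT, the median log2 fold change of these neighbours was 0.15 around CRMP1 (87 genes), 0.27 around DPYSL2 (96 genes), 0.09 around DPYSL3 (56 genes), -0.04 around DPYSL4 (38 genes) and 0.06 around DPYSL5 (97 genes). Over all genes tested it was 0.00. None of the neighbours of CRMP1 reached its difference, and 1 neighbour of DPYSL3 did. That gene, JAKMIP2, whose middle lies 0.234 Mb away and which was picked out after its values were seen, had a mean of 21.1 normalized counts in WT, 1310.6 in MUT and 3.93 in SWP. Around DPYSL2 13 neighbours, PNMA2 and NEFL included, and around DPYSL4 5 neighbours differed as much as the member or more.

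In SWP against WT, the medians of the neighbours were -0.02 around CRMP1, -0.09 around DPYSL2, -0.07 around DPYSL3, -0.06 around DPYSL4 and -0.08 around DPYSL5, beside -0.06 over all genes tested. All 87 neighbours of CRMP1 lay above its value in SWP. DPYSL4 and DPYSL5 lay above the upper quartile of their neighbours, with 4 of 38 and 6 of 97 neighbours at or above the member.

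**Figure D4:**
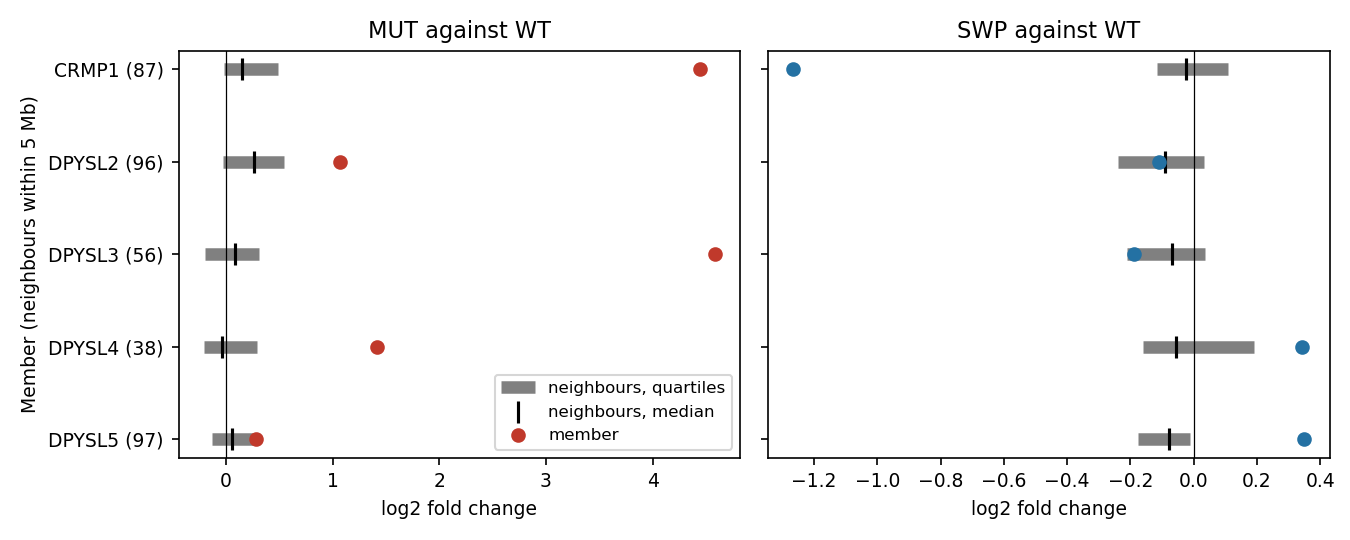
Log2 fold changes of each CRMP gene (dot) and of the tested genes within 5 Mb (grey bar from the lower to the upper quartile, tick at the median), for MUT against WT and SWP against WT, with the number of neighbours in brackets. CRMP1 lies at 4.44 and -1.26, outside its neighbours' quartiles in both comparisons, while DPYSL2 in SWP lies within them.

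The genes with the most similar pattern were ranked by Pearson's r of log2(normalized count + 1) over the 9 libraries, which fall into 3 lines, so a high r mainly restates the line means. Nearest to DPYSL3 were FITM2, TMEM184A and SNPH, with r of 0.998, 0.998 and 0.997. TMEM184A and SNPH, the latter encoding syntaphilin, an anchor of axonal mitochondria, were also nearest to DPYSL2, together with TPBG (r = 0.997). Nearest to CRMP1 were MAGED2, PRKCB and EPHB1 (r = 0.997, 0.997 and 0.996). PRKCB, a protein kinase C, had means of 129.9, 3454 and 57.7 in WT, MUT and SWP, and EPHB1, an ephrin receptor, had 201, 988 and 150.1.

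DPYSL4 was most like ZNF8-DT, PGBD5 and TMEM132E (r = 0.995, 0.994 and 0.993), and TMEM132E had means of 69.0, 1475 and 129.7 in WT, MUT and SWP. DPYSL5 was most like RXRA, TMEM109 and POMGNT2 (r = 0.989, 0.965 and 0.961), and these were above WT in both edited lines, as RXRA with 2628, 3088 and 3235 shows.

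Among the ligands upstream of CRMPs, the class 3 semaphorins, 1 of 7 genes rose and 2 fell in MUT against WT, beside 11.3% and 10.1% of all genes tested. In SWP limma called 0 of 7, with 3 at an unadjusted p under 0.05, and edgeR and DESeq2 called 0 and 0. SEMA3A, the founding cue of the pathway, fell from 1032 ± 115 to 542 ± 43.4 normalized counts (SD, n = 3, log2 fold change -0.92, limma adjusted p = 0.000292). SEMA3E fell by 1.21 on the log2 scale (limma adjusted p = 0.000835), and SEMA3C rose by 0.74 (limma adjusted p = 0.000158). The median log2 fold change of the list was -0.16 in MUT and 0.06 in SWP, beside 0.00 and -0.06 over all genes tested.

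Of 17 semaphorin receptors and transducers, 4 rose and 3 fell in MUT, beside 11.3% and 10.1% of all genes tested, and 1 fell in SWP, beside 2.98%. The neuropilins, which bind class 3 semaphorins, both fell in MUT, NRP1 from 2677 ± 356 to 1575 ± 45.4 and NRP2 from 2327 ± 398 to 1362 ± 121 (SD, n = 3, log2 fold changes -0.76 and -0.76, limma adjusted p = 0.000112 and 0.00136). L1CAM, a neural adhesion molecule that associates with NRP1, rose from 30.4 ± 9.65 to 119.8 ± 6.93 (log2 fold change 1.98, limma adjusted p = 0.000379). RND1, a small GTPase that acts on plexins, rose by 0.82 on the log2 scale (limma adjusted p = 0.000251). The list's median was 0.05 in MUT and 0.03 in SWP.

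Of 11 kinases and kinase activators that act on CRMPs, 2 rose in MUT, beside 11.3% of all genes tested, and 9 were not called. In SWP 1 fell, beside 2.98% of all genes. CDK5, the priming kinase of CRMP2, rose from 4401 ± 409 to 6598 ± 147 (SD, n = 3, log2 fold change 0.59, limma adjusted p = 0.000386), and CDK5R2, the p39 activator of CDK5, from 29.7 ± 12.5 to 165 ± 11.6 (log2 fold change 2.53, limma adjusted p = 0.000178). ROCK2, a kinase that phosphorylates CRMP2, fell in SWP by 0.65 on the log2 scale (limma adjusted p = 0.000329) and was not called in MUT. The list's median was 0.01 in MUT and -0.06 in SWP.

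Of 19 binding partners and proteases, 4 rose in MUT, beside 11.3% of all genes tested, and 15 were not called. In SWP 1 rose and 1 fell, beside 2.15% and 2.98% of all genes. KIF5C, a heavy chain of kinesin-1, the motor to which CRMP2 links tubulin, rose from 1019 ± 75.3 to 3170.2 ± 99.6 (SD, n = 3, log2 fold change 1.64, limma adjusted p = 3.37e-07). CACNA1B, the N-type calcium channel that CRMP2 binds, rose in MUT by 1.71 on the log2 scale (limma adjusted p = 4.63e-05). In SWP CACNA1B was at -0.58 and not called (limma adjusted p = 0.0750), but with the replicate number as a block its adjusted p was 0.0325, which meets the rule. FLNA, the actin crosslinker filamin A, rose by 0.97 in MUT (limma adjusted p = 0.000577). SCN9A, which encodes the sodium channel NaV1.7, rose in both, by 1.17 in MUT and 1.70 in SWP (limma adjusted p = 9.37e-05 and 2.38e-05). The list's median was 0.06 in MUT and -0.07 in SWP.

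Among tubulins, the cargo of CRMPs, 4 of 11 alpha and beta tubulin genes rose and 1 fell in MUT, beside 11.3% and 10.1% of all genes tested. The log2 fold change in MUT was above 0 in 10 of the 11. TUBB3, the neuronal beta-tubulin, rose from 37.8 ± 8.92 to 95.3 ± 18.03 (SD, n = 3, log2 fold change 1.32, limma adjusted p = 0.00101). TUBB4B rose by 0.71 and TUBA1A by 0.67 in MUT (limma adjusted p = 0.00449 and 0.00169). TUBB2B fell in both comparisons, by 0.64 in MUT and 0.52 in SWP (limma adjusted p = 0.00355 and 0.0332), but the SWP call was lost in 11 of 20 other settings and fits. Tubulin genes are near-identical copies between which reads may be divided, so these values are uncertain. The list's median was 0.17 in MUT and 0.02 in SWP.

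Of the 7 lists, that of neuronal microtubule and growth cone proteins, with 13 of 16 genes tested, had the highest median in MUT. In MUT 8 of the 13 rose, beside 11.3% of all genes tested, and 5 were not called, with a median log2 fold change of 0.73. The list was chosen with earlier results known, so this count is a description. In SWP 1 rose, beside 2.15% of all genes, and 12 were not called, with a median of 0.14. MAP6, which stabilizes microtubules against cold, rose from 37.0 ± 3.38 to 173.7 ± 6.15 (SD, n = 3, log2 fold change 2.204, limma adjusted p = 4.42e-06). MAP2, the dendritic microtubule protein, rose by 2.04, and BASP1, a growth cone membrane protein, by 2.04 (limma adjusted p = 7.44e-06 and 2.67e-06). KIF1A, a motor for synaptic vesicle precursors, rose in both lines, by 1.87 in MUT and 1.59 in SWP (limma adjusted p = 1.91e-06 and 1.49e-05). STMN2, STMN4 and DCX, widely used markers of young neurons, did not reach the minimum mean of 10 normalized counts.

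**Figure D5:**
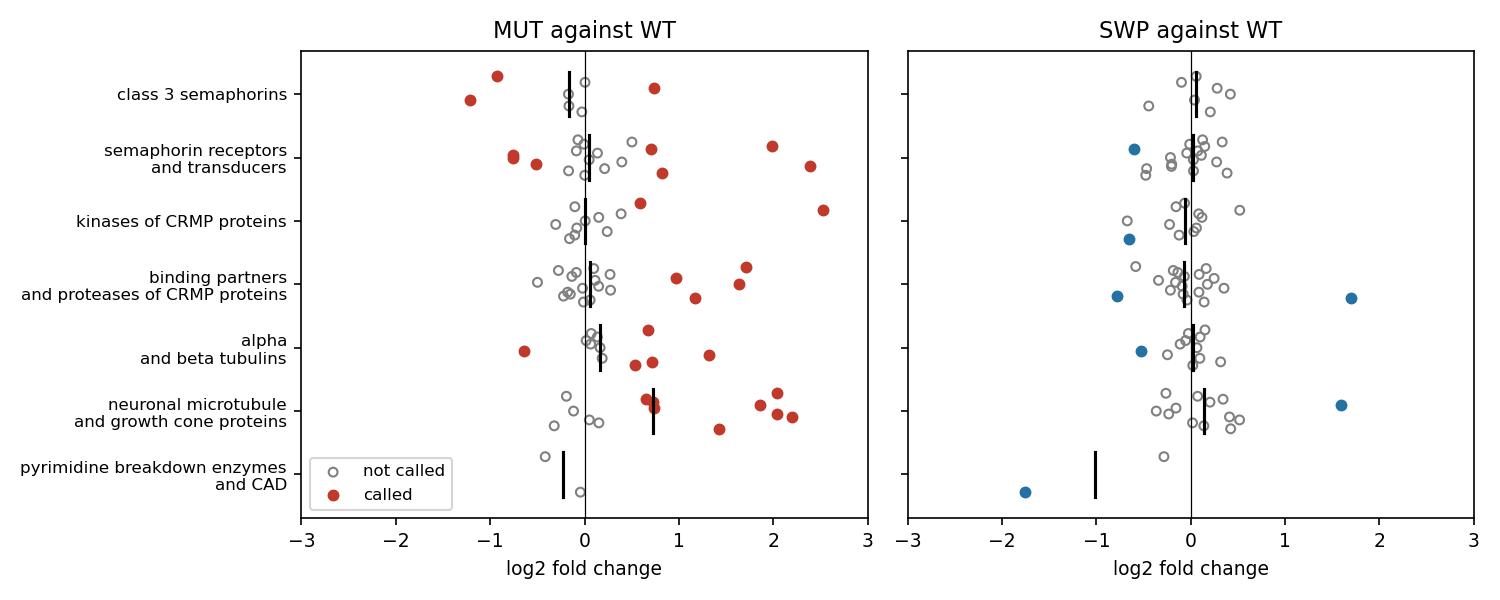
Log2 fold changes of the genes of the 7 pathway lists in MUT against WT and SWP against WT, with 1 point per tested gene, filled where called, and a line at the median of each list. Neuronal microtubule and growth cone proteins have the highest median in MUT (0.73) with 8 filled points, while in SWP the lists hold 7 filled points in all.

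The last list held the enzymes of pyrimidine breakdown and CAD, of which DPYS and CAD are relatives of the CRMPs, with 2 of 4 genes tested and medians of -0.23 in MUT and -1.02 in SWP. DPYS, dihydropyrimidinase itself, had at most 4 reads in any library. CAD, whose dihydroorotase domain is a relative of the family, had 22129 ± 1255 normalized counts in WT, 16589 ± 1164 in MUT and 18202 ± 1569 in SWP (SD, n = 3). Its log2 differences of -0.42 and -0.28 were under the fold threshold (limma adjusted p = 0.00210 and 0.0495). DPYD, the first enzyme of pyrimidine breakdown, was the only gene of this list of 4 that was called, and it fell in SWP from 179 ± 26.3 to 52.9 ± 12.6 (SD, n = 3, log2 fold change -1.75, limma adjusted p = 0.000157).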

How the data were processed

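The deposited values are RNA-seq signal, read counts per gene that the authors divided by DESeq2 size factors. Per the study's methods, poly(A)-selected, directional libraries were aligned to hg38 with bwa mem, which is not aware of splicing, duplicates were removed with Picard, and reads were counted on GENCODE genes. The counting tool and its use of strand are not given in the sources used here. Multiplying the values by a constant for each library recovered whole reads for 100% of values (tolerance 0.001). Symbols and positions came from GENCODE on hg38 for 57754 of 58336 identifiers.

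Differences were fitted with limma 3.58.1 (R 4.3.3, trended empirical Bayes) on log2(normalized count + 1) over all 9 libraries and genes with a mean of at least 10, with Benjamini-Hochberg adjustment over all 20884 genes. A fold change on this scale understates that of low genes. Alternatives used edgeR 4.0.16 and DESeq2 1.42.0 on recovered reads, other pseudocounts, filters, scalings, a replicate block and each library left out. The procedure was tested on simulated data. Libraries of a line differed beyond counting noise (chi-square per degree of freedom 8.32 to 55.6), so none was a duplicate.

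Replicate numbers did not enter the main fit and were used only as a block in an alternative that covered all lines. Between SWP and WT, the deviations of same-numbered libraries from their line means correlated at 0.102 to 0.555. All 9 same-numbered pairs of libraries from different lines correlated positively, at 0.0490 to 0.555, the lowest between MUT and WT. The 18 differently numbered pairs ran from -0.477 to 0.263. These ranges overlap, so pairing by number was not established. Members and lists were chosen with earlier results of these data known. Named genes were the members, DPYS, CAD and MYC, up to 4 called genes per list with a mean of at least 50 and the largest change, and the 3 most similar genes per member. Genes overlapping a member were named for position alone. Other assays of the series are not analysed here. The values of 1 marker gene are not reported here.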

Additional observations from a re-analysis of the deposited data

Results flagged for a closer look

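For CRMP1 and DPYSL2 the libraries of the edited lines lay on opposite sides of WT. Every MUT library was above every WT library, as for 25.9% of all genes tested. Every SWP library was below every WT library, as for 15.5%. The log2 fold change of MUT against SWP was 5.71 for CRMP1 and 1.17 for DPYSL2. The difference between the lines was not tested, since the MUT libraries were among the values known when the family was selected. For DPYSL2, SWP against WT did not pass the test, and the separation was narrow. The highest SWP value was 2082.7 and the lowest WT value 2089.95 normalized counts. The log2 fold change of DPYSL2 in SWP was -0.11, beside a median of -0.06 over all genes tested. It was -0.06 with values rescaled to equal totals, so its place below WT depends on the scaling.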

How the results depend on the processing

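Each difference of the 5 members was recomputed under 20 alternatives. Neither the direction nor the call of a member changed under any of them. Among descriptive differences, 2 moved by more than the spread between replicates, that of DPYSL4 in MUT against WT to 1.49 with values rescaled to equal totals, and that of CRMP1 in MUT against SWP to 5.30 with a pseudocount of 10. With the replicate number as a replicate block, CRMP1 in SWP against WT stayed at -1.26 with a limma adjusted p of 3.52e-05. The block gave 1464 called genes in SWP against WT and 4970 in MUT against WT, and it changed no call of a named gene other than CACNA1B. Genes called in MUT against WT numbered 8021 with no fold threshold and 1648 with a log2 threshold of 1, against 4476, and those in SWP against WT 2083 and 505, against 1072. On recovered reads, edgeR called 4554 genes in MUT against WT and 1110 in SWP against WT, and DESeq2 4412 and 1176. By length of the canonical transcript, an alternative chosen after seeing the data, DPYSL2 took place 3 and DPYSL3 place 4 in MUT. Neighbourhood medians within 2 and 10 Mb moved by less than the interquartile range of the neighbours. The low read counts of CRMP1 in WT and SWP limit how precisely its fold in MUT is known, and the 3 libraries per line carry no information on other clones.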
